A study of Mus musculus with 36 samples.

Results

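Primary fibroblasts of tendon and of cornea, both kept under slow laminar flow, were compared over all genes measured on a pair of mouse oligonucleotide arrays. The compared set is 12 of the 36 arrays of the series: 3 libraries of tendon fibroblasts under flow and 3 libraries of corneal fibroblasts under flow, each hybridised once to chip A and once to chip B. These arrays were chosen by their titles alone, with no measured value used. Tendon fibroblasts under flow (hereafter tendon flow) were cells of fetal CD1 mice at 19 days post conception, expanded in serum-containing medium for 5 population doublings, seeded on gelatin-coated glass and perfused for 14 h at a wall shear stress of 0.1 dyn/cm2. Corneal fibroblasts under flow (cornea flow) had the same strain, fetal age, number of doublings, substrate and flow. Skin fibroblasts under flow, and tendon and corneal fibroblasts in static culture, were set beside them, with 3 libraries in each group. These groups and static skin fibroblasts, also with 3 libraries, entered the same fit and so share in its estimate of the spread. Which tendon, and which layers of the cornea, were dissected is not given in the sources used here. Nor do the labels say whether the 3 libraries of a group came from different litters. The p-values below therefore measure the spread between libraries within a group, pooled over all 6 groups.

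As background, fibroblasts keep in culture a record of where in the body they came from. Tendon fibroblasts of the trunk and limbs arise from mesoderm and carry the Hox code of their axial level, with tendon formation driven by the transcription factors Scx and Mkx and marked by the membrane protein Tnmd. The keratocytes of the corneal stroma arise from cranial neural crest, which lacks most Hox expression and uses factors such as Foxc1 and the AP-2 family. Keratocytes in the eye are known for keratan sulfate proteoglycans (Kera, Lum) and for soluble aldehyde dehydrogenases that act as crystallins.

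Every level below is an RMA value on the log2 scale, 1 probe set per gene, and every difference is tendon flow minus cornea flow on that scale, so a difference of 1 is 2-fold. Differences were tested with limma over 18193 genes, and a gene is called where the Benjamini-Hochberg adjusted p is under 0.05. On the 435 genes called between tendon and cornea in static culture, with cornea static set at 0 and tendon static at 1, tendon flow scored 1.005, 0.901 and 0.977, against 0.036, 0.107 and 0.015 in cornea flow. Skin flow scored 0.636, 0.609 and 0.622 on that axis. Each library therefore lay by the tissue in its title, although a free-text description field of all 6 tendon flow arrays names the other tissue. RNA quality moved with the groups. The difference between the 3' and 5' probe sets of beta-actin on chip A, which grows as RNA is degraded or the labelled copies are shortened, was 1.36, 1.63 and 1.157 in tendon flow, against 0.887, 0.944 and 0.967 in cornea flow. For Gapdh on chip A the same difference was 2.171, 2.136 and 2.134 in tendon flow, against 2.001, 1.741 and 1.652 in cornea flow. Neither pair of groups overlapped, at the smallest two-sided p of an exact permutation test with 3 against 3 (0.1). On chip B beta-actin did not overlap either, at 1.417, 1.868 and 1.111 in tendon flow, against 0.986, 1.01 and 1.015 in cornea flow (exact p = 0.1), but Gapdh did, at 2.386, 2.214 and 2.106 in tendon flow, against 2.217, 1.844 and 1.813 in cornea flow (exact p = 0.3). With these measures as covariates the calls below numbered 221 (beta-actin) and 201 (Gapdh); of the 87 named genes that were called, 22 and 29 lost their call in these fits.

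Tendon flow and cornea flow differed in 300 of 18193 genes (1.65%). Of these, 157 (0.863%) were higher and 143 (0.786%) lower in tendon flow. The difference was at least 2-fold in 186 genes (1.02%), 96 higher and 90 lower, and at least 4-fold in 51, 28 higher and 23 lower. Among called genes the median size of the difference was 1.19 log2 units, against 0.12 over all genes, whose median signed difference was 0.03. The 2 groups' libraries did not overlap in any of the 300 genes, against 16.3% of all genes without overlap. Flow libraries with the same replicate number shared a hybridisation run. All 300 genes kept their direction in each of these 3 pairs, against 34.6% of all genes. The calls were made on these same libraries, so this and the lack of overlap describe them and are no separate test. In every fit that left out 1 of the 6 libraries 154 of the 300 genes were called again. The number called ranged over 185 to 254 when each library was left out, lowest without tendon flow 3. Where a named call below is said to be lost, the range of differences and the highest adjusted p given with it run over these 6 fits. The flow libraries numbered 1 were scanned in 1 batch and those numbered 2 and 3 in another. With the scan batch as a block 371 genes were called, and within the second batch alone, with 2 libraries a group, 113 (59 higher and 54 lower). The culture days noted in the scan records of that batch differ throughout between the tissues, so day of culture and tissue cannot be told apart. Probe sets other than the tested one were on the arrays for 165 called genes. Of these 306 other probe sets 275 (89.9%) had the same direction, 93 were called in that direction and 0 in the opposite one.

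Of the 14 genes with the largest differences higher in tendon flow, several encode secreted signals or matrix. Hoxc10, a posterior homeobox gene, had levels of 10.4, 9.65 and 9.53 in tendon flow, against 5.21, 5.17 and 5.79 in cornea flow, a difference of 4.47 ± 0.30 (SE; limma, adjusted p = 2.32e-07). C1qtnf3, a secreted protein of the C1q and TNF family, was at 9.66, 9.62 and 9.78 in tendon flow, against 5.27, 5.22 and 5.91 in cornea flow. Smoc2, a calcium-binding matricellular protein, was at 11.51, 11.13 and 11.27 in tendon flow, against 7.13, 6.68 and 7.46 in cornea flow. For these genes the lowest tendon flow library lay more than 3 log2 units above the highest cornea flow library. Prg4, which encodes the joint and tendon lubricant lubricin, was at 10.95, 10.8 and 11.22 in tendon flow, against 6.42, 7.19 and 7.42 in cornea flow (difference 3.98 ± 0.33, adjusted p = 1.6e-06). Cck, the gene of the peptide hormone cholecystokinin, had the smallest p of all genes: 12.93, 12.74 and 12.92 in tendon flow, against 9.59, 9.81 and 9.87 in cornea flow (3.11 ± 0.12, adjusted p = 2.04e-10). Penk, a precursor of opioid peptides, was at 11.64, 10.35 and 10.59 in tendon flow, against 8.39, 8.66 and 8.52 in cornea flow. So 2 genes of neuropeptide precursors were among the largest differences. A lack of overlap between the groups was a condition for entry into this set.

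The rest of that set held Lmcd1, a LIM-domain transcription cofactor (difference 3.05), the signalling ligand Wnt4 (2.85), the cGMP-dependent kinase gene Prkg2 (2.81), the chemokine Ccl8 (2.77), the matrix glycoprotein Thbs4 (2.61), the activin subunit Inhbb (2.59), dermatopontin (Dpt, 2.38) and Hoxa11 (2.38). Their adjusted p ran up to 0.0107, for Ccl8. Ccl8 spread widely, with 11.3, 9.63 and 10.44 in tendon flow, against 7.13, 7.53 and 8.4 in cornea flow. Its call was lost without cornea flow 1 or tendon flow 1, with a difference of at least 2.35 and an adjusted p of up to 0.0765, and with either RNA quality covariate (adjusted p = 0.0854 and 0.0941). Dpt was also uneven in tendon flow, at 9.62, 7.79 and 8.25, against 6.16, 6.1 and 6.28 in cornea flow, and lost its call with the Gapdh covariate (adjusted p = 0.069). With the mean of a gene's probe sets, Prkg2 differed by 1.65 and Inhbb by 1.45, both still called.

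Among the 14 genes with the largest differences lower in tendon flow were water channels, a retinal dehydrogenase and regulators of growth factors. Igfbp2, a secreted binding protein of insulin-like growth factors, had the largest difference of all called genes: its level was 7.61, 5.92 and 6.51 in tendon flow, against 12.69, 11.36 and 12.59 in cornea flow (-5.53 ± 0.61, limma, adjusted p = 3.51e-05). Aldh1a1, which oxidises retinal to retinoic acid, was at 6.06, 5.78 and 6.3 in tendon flow, against 10.97, 10.09 and 10.42 in cornea flow (-4.45 ± 0.28, adjusted p = 7.8e-08). Aqp1, a water channel of keratocytes and corneal endothelium, was at 6.13, 6.17 and 6.04 in tendon flow, against 10.1, 9.62 and 9.65 in cornea flow. Within each group the 3 libraries of Aqp1 lay within 0.5 log2 units of each other. Aqp5, a water channel known from epithelia, was at 7.99, 6.83 and 6.96 in tendon flow, against 10.48, 9.52 and 10.59 in cornea flow (-2.94 ± 0.36, adjusted p = 0.000125). Npr3, the clearance receptor of natriuretic peptides, was at 4.55, 5.13 and 5.53 in tendon flow, against 8.78, 7.81 and 8.61 in cornea flow.

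Tnfrsf11b, the decoy receptor osteoprotegerin, was at 4.37, 4.65 and 4.81 in tendon flow, against 8.01, 6.89 and 8.04 in cornea flow (-3.04 ± 0.35, adjusted p = 5.96e-05). Ptprb, a receptor phosphatase known from endothelium, was at 6.69, 6.98 and 6.76 in tendon flow, against 9.43, 9.65 and 9.75 in cornea flow (-2.80 ± 0.16, adjusted p = 2.38e-08). Both had every tendon flow library more than 2 log2 units below every cornea flow library. The others were the intracellular serpin Serpinb6b (-2.98), the actin-binding Limch1 (-2.89), the matrix protein Vit (-2.58), the heparan sulfate sulfatase Sulf1 (-2.57), the LIM-homeobox gene Lhx9 (-2.54), the BMP-binding transmembrane protein Crim1 (-2.48) and the muscle enolase Eno3 (-2.39), with adjusted p of at most 0.000494. None of the 14 lost its call in any alternative fit tried, but the size of some rested on the probe set. With the mean of a gene's probe sets on the chip in place of 1 probe set, Npr3 differed by -1.36, Lhx9 by -1.39 and Tnfrsf11b by -1.73, all still called. The other probe sets of Npr3 differed by -0.28 and -0.46 and that of Tnfrsf11b by -0.43, none of them called. Where this probe-set mean moved another named difference by more than 1.5 times, it is given with the gene below.

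**Figure D1:**
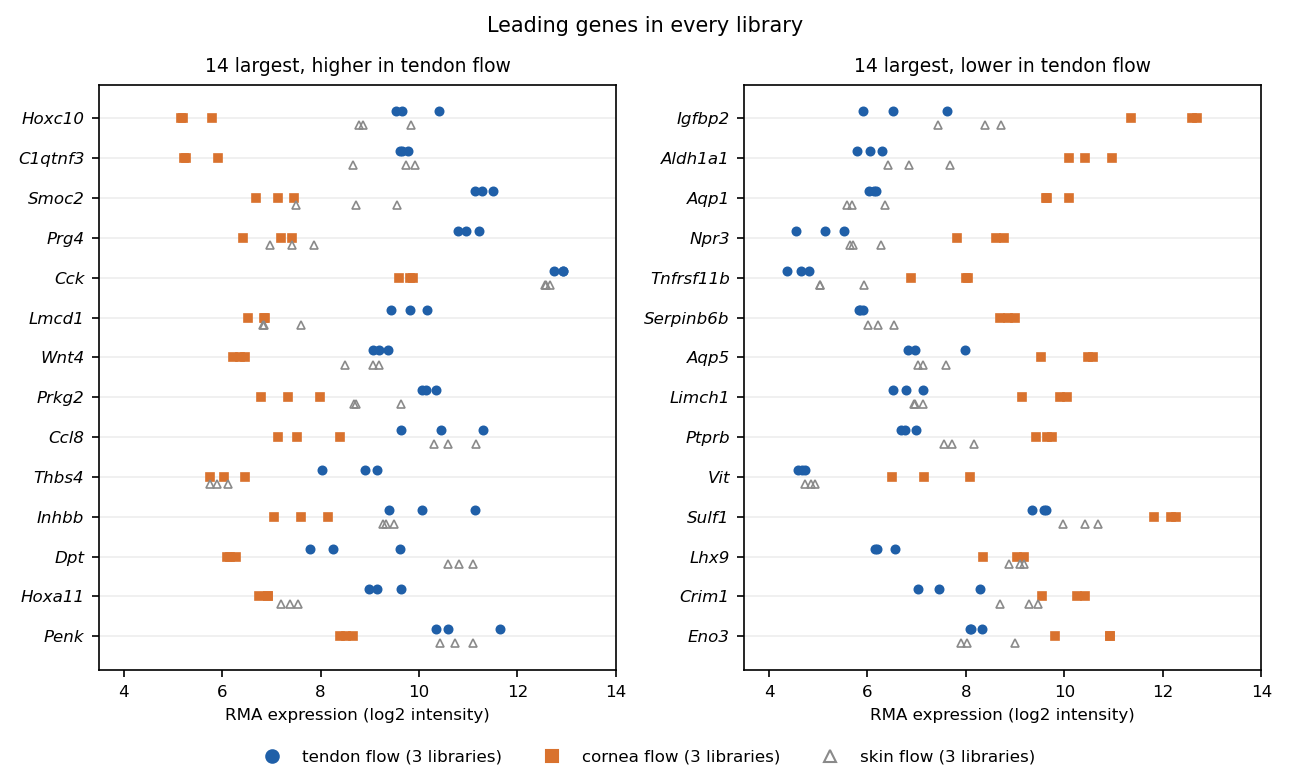
Levels of the 14 genes with the largest called difference in each direction, 1 point per library: RMA expression (log2 intensity) on the horizontal axis, genes down the page, blue circles tendon flow, orange squares cornea flow, open grey triangles skin flow. Only genes whose 3 tendon flow libraries lay apart from the 3 cornea flow libraries were taken. Skin flow lies with tendon flow for some genes (Cck, Wnt4, Penk) and with cornea flow for others (Prg4, Thbs4, Lhx9).

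The defining markers bore out the labels only in part. Of 6 tendon markers 1 was called: Thbs4, at 9.14, 8.04 and 8.9 in tendon flow, against 6.03, 5.75 and 6.46 in cornea flow (adjusted p = 2.93e-05). Scx was at 5.84, 5.58 and 5.69 in tendon flow, against 6.15, 5.63 and 6.56 in cornea flow, and the groups overlapped (difference -0.41, adjusted p = 0.585). Tnmd was at 9.13, 9.04 and 9.29 in tendon flow, against 9.17, 9.08 and 9.55 in cornea flow (-0.11, adjusted p = 0.935; 0.18 and 0.21 with the beta-actin and Gapdh covariates). Mkx was at 6.06, 6.44 and 6.7 in tendon flow, against 5.36, 5.38 and 5.9 in cornea flow, without overlap but not past the threshold (0.85 ± 0.22, adjusted p = 0.0608). Thus neither Scx nor Tnmd set tendon flow apart from cornea flow, and the other 2 tendon markers, the collagen-binding proteoglycan Fmod (0.21) and Comp (0.45), were not called either.

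Of 5 corneal stroma markers 2 were called, both aldehyde dehydrogenases: Aldh1a1 (above) and Aldh3a1, the major soluble protein of mouse corneal epithelium, at 6.89, 6.23 and 6.13 in tendon flow, against 8.18, 7.55 and 7.82 in cornea flow (-1.43 ± 0.20, adjusted p = 0.000396). Kera, the keratan sulfate proteoglycan that marks keratocytes, was at 4.69, 4.84 and 4.8 in tendon flow, against 4.66, 4.66 and 4.52 in cornea flow (0.16, adjusted p = 0.799). Lum was at 9.47, 8.6 and 9.28 in tendon flow, against 7.97, 7.46 and 8.78 in cornea flow, an overlap between the groups (1.04, adjusted p = 0.437). So neither Kera nor Lum was called higher in cornea flow. All Kera levels lay well below the array medians of chip A (7.19 to 7.28). A signal that low cannot show whether Kera differed. Of 6 general fibroblast markers 1 was called, the surface glycoprotein Thy1 at 12.87, 12.2 and 12.19 in tendon flow, against 11.66, 11.13 and 11.53 in cornea flow (0.98, adjusted p = 0.0408), and that call was lost without any 1 of the 6 libraries (difference 0.76 to 1.10, adjusted p up to 0.219). Col1a1 was at 12.2, 12.1 and 12.1 in tendon flow, against 12.1, 12.3 and 12 in cornea flow.

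**Figure D2:**
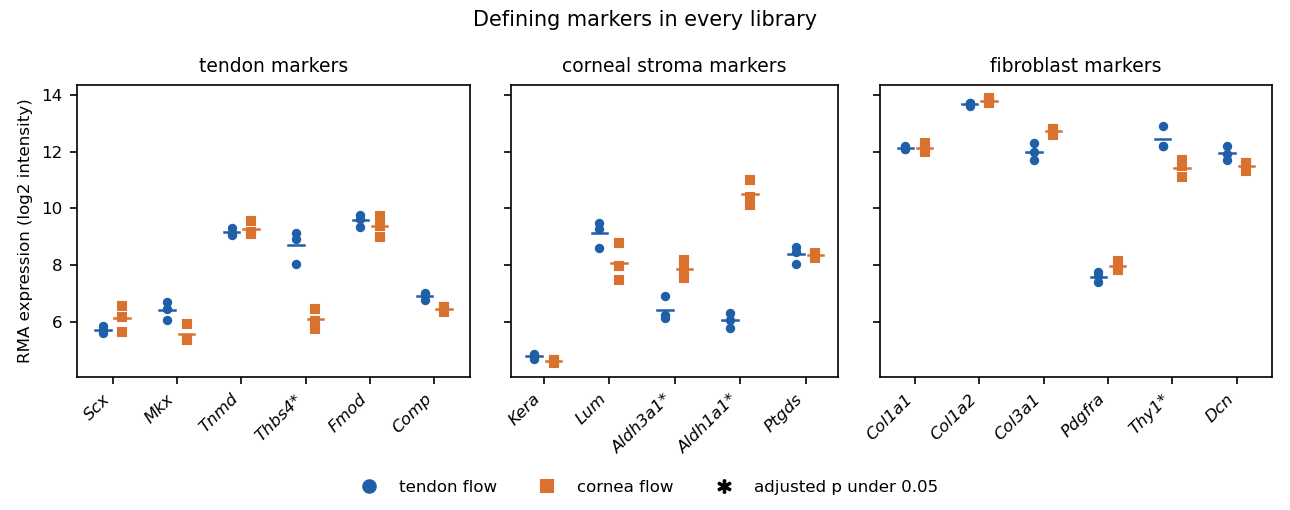
Defining markers of tendon, corneal stroma and fibroblasts in every library: RMA expression (log2 intensity) on the vertical axis, blue circles tendon flow, orange squares cornea flow, short lines the group means (n = 3 each), an asterisk on genes with adjusted p under 0.05. Thbs4, Aldh3a1, Aldh1a1 and Thy1 carry the asterisk, while Scx, Tnmd, Kera and Lum do not.

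The gene lists used from here on were chosen with earlier results of these data known, so their counts are no test of a list. Each count is to be read beside the 0.863% of all genes called higher and the 0.786% called lower. Over the longer list of tendon identity genes 4 of 27 were higher and 1 lower in tendon flow, with a list median of 0.09. Beside Prg4 and Thbs4, Thbs2, a matrix thrombospondin, was at 11.96, 11.65 and 11.77 in tendon flow, against 10.33, 10.03 and 10.89 in cornea flow (1.38 ± 0.21, adjusted p = 0.00101). The fourth was the heparin-binding growth factor Ptn, named here after its values were seen (1.10, adjusted p = 0.0117; lost without cornea flow 3, tendon flow 1 or tendon flow 3, with a difference of 0.97 to 1.29 and an adjusted p of up to 0.079). Ptgis, the prostacyclin synthase, went the other way, at 8.77, 8.4 and 8.44 in tendon flow, against 10.61, 11.09 and 10.51 in cornea flow (-2.20 ± 0.17, adjusted p = 6.97e-07). Corneal stroma identity genes gave 0 of 25 higher and 5 lower in tendon flow, although the list median was 0.12. The fifth, next to Aldh1a1, Aldh3a1, Aqp1 and Npr3, was Col8a1, a short-chain collagen of the corneal basement membrane, at 9.88, 9.3 and 9.49 in tendon flow, against 11.48, 10.69 and 11.54 in cornea flow (-1.68 ± 0.29, adjusted p = 0.00367).

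Hox genes, which encode the positional code of the trunk and limbs, were called more often than any other list, and in 1 direction only. Of 33 measured, 10 were higher and 0 lower in tendon flow, against 0.863% of all genes higher. The median over the list was 0.33, and 31 of 33 differences were above 0. Among genes of paralogue groups 9 to 13, the posterior part of each cluster, 6 of 14 were called, and among groups 1 to 8 it was 4 of 19. Beside Hoxc10 (chromosome 15, above), Hoxa11 (chromosome 6) was at 9.64, 8.99 and 9.14 in tendon flow, against 6.94, 6.76 and 6.94 in cornea flow. Its neighbour Hoxa10 was at 7.37, 7.23 and 7.24 in tendon flow, against 4.79, 5.12 and 4.94 in cornea flow (2.33 ± 0.15, adjusted p = 7.8e-08). Both members of the HoxA cluster had no overlap between the groups, with every tendon flow library above every cornea flow library. Hoxb13 (chromosome 11) was at 7.52, 6.93 and 7.23 in tendon flow, against 5.14, 4.96 and 4.9 in cornea flow (2.23 ± 0.22, adjusted p = 1.2e-05). Hoxc13 was at 8.83, 8.84 and 8.97 in tendon flow, against 7.02, 6.71 and 6.48 in cornea flow (2.14 ± 0.17, adjusted p = 8.1e-07).

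The calls outside the posterior groups were smaller. Hoxc8 differed by 1.07, Hoxb2 by 0.94, Hoxb6 by 0.88 and Hoxb4 by 0.55, and Hoxb9, of the posterior groups, by 0.59. Hoxb4, Hoxb6 and Hoxb9 lost their calls without several of the 6 libraries, with adjusted p of up to 0.132, 0.095 and 0.189 and differences that stayed between 0.49 and 1.11 over the 3 genes. Hoxb4 was lost without cornea flow 1 or 3 or tendon flow 1 or 2, Hoxb6 without cornea flow 2 or 3 or tendon flow 2 or 3, and Hoxb9 without any 1 of them. No gene of the HoxD cluster (chromosome 2) was called among 8 measured, with differences between -0.07 and 0.39. The HoxD genes include Hoxd11 to Hoxd13, which pattern the distal limb, at 0.08, -0.07 and 0.02. Skin flow separated the called Hox genes further. Hoxc8 averaged 6.40 in tendon flow and 5.33 in cornea flow, but 10.5 in skin flow, whereas Hoxb13 averaged 7.23 in tendon flow and 5.00 in cornea flow, with 5.12 in skin flow. Against skin flow, Hoxa10, Hoxa11, Hoxb13 and Hoxc13 were higher in tendon flow by 1.62 to 2.11 (limma, adjusted p of at most 4.08e-05).

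**Figure D3:**
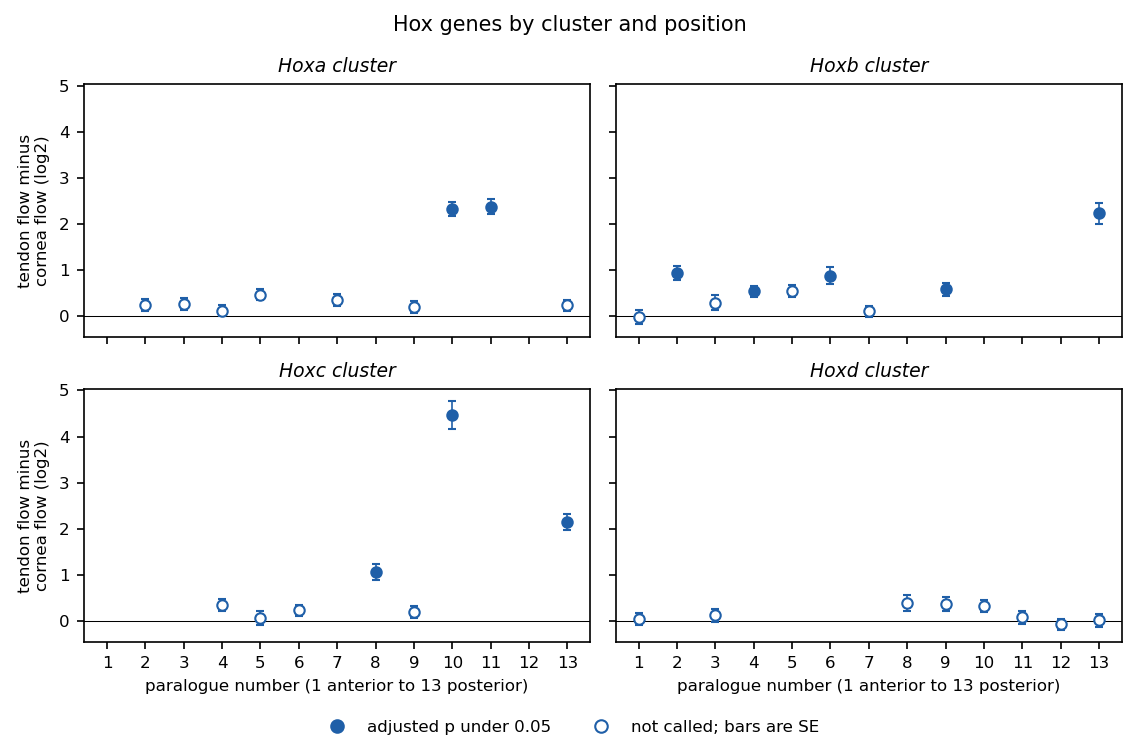
Difference of each Hox gene between tendon flow and cornea flow (log2, vertical axis) against its paralogue number within the cluster (horizontal axis), 1 panel per cluster; bars are standard errors, filled points have an adjusted p under 0.05. The largest differences are Hoxc10 at 4.47 and Hoxa10, Hoxa11, Hoxb13 and Hoxc13 at 2.14 to 2.38, while the HoxD genes lie between -0.07 and 0.39.

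Transcription factors of the anterior eye and cranial neural crest were lower in tendon flow in 5 of 38 and higher in 1 (list median -0.04). Tfap2b, an AP-2 factor of the neural crest, was at 4.4, 4.37 and 4.41 in tendon flow, against 6.9, 6.71 and 6.44 in cornea flow (-2.29 ± 0.15, adjusted p = 1.09e-07). Alx1, a homeobox gene of the craniofacial mesenchyme, was at 4.65, 4.96 and 4.79 in tendon flow, against 6.48, 6.72 and 7.7 in cornea flow (-2.17 ± 0.23, adjusted p = 3.42e-05). Foxc1, a forkhead factor needed for the anterior chamber of the eye, was at 6.81, 7.03 and 6.99 in tendon flow, against 8.17, 8.1 and 8.87 in cornea flow (-1.44 ± 0.17, adjusted p = 5.59e-05). These 3 factors had tight tendon flow libraries, all below every cornea flow library. Foxl2, a forkhead factor of the eyelid and ovary, and the nuclear receptor Nr2f1 completed the lower ones and were named after their values were seen (-0.86 with adjusted p = 0.00114, and -1.06 with adjusted p = 0.0225). Nr2f1 was lost without cornea flow 1 or 3 or any 1 tendon flow library (difference -1.18 to -0.93, adjusted p up to 0.128). Zic1, a zinc-finger factor of dorsal neural tissue and trunk mesoderm, was the exception, at 6.39, 7.13 and 6.91 in tendon flow, against 4.66, 4.56 and 4.62 in cornea flow (2.20 ± 0.24, adjusted p = 2.93e-05). The probe-set mean of Alx1 was -1.24, still called.

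Of 39 transcription factors of limb and trunk mesenchyme 2 were higher and 1 lower in tendon flow (list median 0.07). Twist2, a repressor of the dermal mesenchyme, was at 10.93, 10.77 and 10.83 in tendon flow, against 9.29, 9.14 and 9.77 in cornea flow (1.44 ± 0.19, adjusted p = 0.000185). Lhx9, although a limb mesenchyme factor, was the lower one, at 6.16, 6.57 and 6.2 in tendon flow, against 9.03, 8.34 and 9.17 in cornea flow, and its mean was 9.05 in skin flow and 8.85 in cornea flow. Meis2, a cofactor of Hox proteins, was higher by 0.95 (adjusted p = 0.0294). That call was lost without cornea flow 1 or 3 or tendon flow 1 or 2 (difference 0.85 to 1.09, adjusted p up to 0.136). Its other probe sets differed by 1.46 and 0.90, both called, and by 0.14, not called.

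Matrix genes were called in both directions, in most lists at a larger share than the 1.65% of all genes. These lists too were chosen with earlier results of these data known, so the shares are no test. Collagen chains gave 2 higher and 1 lower of 37 (median 0.12), and small leucine-rich proteoglycans and hyaluronan genes 0 of 24 (median 0.08). Col5a3, a minor chain of fibrillar collagen V, was at 10.1, 10.24 and 10.07 in tendon flow, against 8.01, 9.49 and 8.54 in cornea flow (1.46, adjusted p = 0.035), and Col6a2 was higher by 0.75 (adjusted p = 0.0458). Both calls were lost without cornea flow 1 or 3 or any 1 tendon flow library (Col5a3 1.12 to 1.86, adjusted p up to 0.172; Col6a2 0.59 to 0.91, up to 0.212). Elastic fibre, tenascin and matricellular genes gave 4 higher and 2 lower of 38 (median 0.07). Beside Smoc2, Thbs4 and Thbs2, the matricellular Sparcl1 was the fourth higher one, named after its values were seen (0.78, adjusted p = 0.0269; lost without 5 of the 6 libraries, all but cornea flow 3, at 0.70 to 0.92 and an adjusted p of up to 0.13). Efemp1, the extracellular protein fibulin-3, was lower, at 9.05, 8.8 and 9.04 in tendon flow, against 11.01, 10.71 and 10.48 in cornea flow (-1.77 ± 0.29, adjusted p = 0.00255). The matrix-crosslinking transglutaminase Tgm2 was lower too, at 7.21, 7.26 and 7.35 in tendon flow, against 8.72, 8.62 and 8.71 in cornea flow (-1.41 ± 0.13, adjusted p = 9.01e-06), the 1 call among 20 cross-linking and collagen-processing genes. Their probe-set means were 0.82 for Col5a3 and -0.77 for Tgm2, both still called.

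Integrin and basement membrane genes gave 0 higher and 2 lower of 36 (median -0.18). Nid2, a basement membrane linker, was at 5.52, 5.39 and 5.33 in tendon flow, against 6.43, 6.65 and 6.81 in cornea flow (-1.22 ± 0.12, adjusted p = 1.06e-05). Npnt, an integrin ligand, was also lower (-1.38, adjusted p = 0.0383) and lost its call without cornea flow 1 or 2 or tendon flow 1 or 3 (-1.69 to -1.14, adjusted p up to 0.185). Its probe-set mean was -0.65, still called. Another probe set of Npnt differed by -1.31 and was called, while the rest, at -0.26 to -0.06, were not.

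Matrix proteases and their inhibitors split, with 3 higher and 3 lower of 35 (median 0.11). Mmp10, a stromelysin, was at 10.6, 9.19 and 9.55 in tendon flow, against 7.18, 8.24 and 7.7 in cornea flow (2.07 ± 0.40, adjusted p = 0.00965). Mmp13, the interstitial collagenase of mice, was at 9.82, 8.77 and 8.96 in tendon flow, against 6.23, 8.3 and 7.32 in cornea flow (1.90 ± 0.39, adjusted p = 0.0158). Both were widest apart in the libraries numbered 1, and Mmp10 was lost without cornea flow 1 or tendon flow 1 (1.66 to 2.37, adjusted p up to 0.068), Mmp13 without those or cornea flow 3 (1.38 to 2.41, adjusted p up to 0.106). Lower in tendon flow were the membrane-type protease Mmp16, at 7.35, 7.7 and 7.72 in tendon flow, against 9.22, 8.66 and 9.55 in cornea flow (-1.55 ± 0.22, adjusted p = 0.00042), and the aggrecanase Adamts5 (-1.47 ± 0.27, adjusted p = 0.0051). The cathepsin Ctsk (1.03, adjusted p = 0.0392) and the inhibitor Timp3 (-1.07, adjusted p = 0.0233) were called as well, named after their values were seen. Ctsk was lost without any 1 cornea flow library, tendon flow 1 or tendon flow 3 (0.80 to 1.2, adjusted p up to 0.209), and Timp3 without cornea flow 2 or 3 or tendon flow 1 or 3 (-1.22 to -0.89, adjusted p up to 0.123). The probe-set mean of Mmp16 was -0.99, still called, and within the second scan batch alone Mmp13 differed by 1.06 (adjusted p = 0.383). The Adamts5 call was lost in a fit on the 6 flow libraries alone.

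The sequences just before the transcription starts were searched as a description of what the called genes share. RefSeq (GRCm38.p6) listed a start for 114 of the genes higher and 106 of the genes lower in tendon flow, and for 14452 of all genes; the 250 bases before the first-listed start were scanned on both strands for 8 motifs. TGANTCA was searched as a loose form of the AP-1 motif, with any base at N. It was present in 12.3% of promoters of higher genes and 13.2% of lower genes, against 5.58% of all promoters. The AP-1 motif itself has C or G at N, so these are not shares of AP-1 motifs alone. For the other motifs the share in higher genes is given first, then that in lower genes, then that in all promoters. GGGCGG, the GC box, was present in 57.9%, 67.9% and 49.9%, and the AP-2 motif GCCNNNGGC in 18.4%, 22.6% and 18.3%. TATAAA was present in 14%, 7.55% and 9.02%, the E-box CAGCTG in 13.2%, 13.2% and 12.5%, TAATTA in 1.75%, 0.943% and 3.09%, TTTACGA in 0%, 0% and 0.512%, and a loose form of the CArG box (CC and GG with any 6 bases between) in 85.1%, 83% and 76.6%. The median share of G and C was 58%, 62.8% and 57.6%. No test was made of these shares, and a match does not show that a factor binds. The 4 named genes with a TGANTCA match and the largest differences are shown, 250 bases each, with the match in capitals. In Mmp13 it begins 35 bases and in Mmp10 63 bases before the start, in Aldh1a1, for which 2 starts are listed, 57 and in Efemp1 154.
Mmp10 (chr9:7502092-7502341, plus strand): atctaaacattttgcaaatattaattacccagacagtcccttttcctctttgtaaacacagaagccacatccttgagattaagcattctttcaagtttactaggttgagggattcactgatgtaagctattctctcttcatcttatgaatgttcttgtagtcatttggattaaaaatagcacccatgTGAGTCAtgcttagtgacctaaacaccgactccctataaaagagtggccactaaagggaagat
Mmp13 (chr9:7272264-7272513, plus strand): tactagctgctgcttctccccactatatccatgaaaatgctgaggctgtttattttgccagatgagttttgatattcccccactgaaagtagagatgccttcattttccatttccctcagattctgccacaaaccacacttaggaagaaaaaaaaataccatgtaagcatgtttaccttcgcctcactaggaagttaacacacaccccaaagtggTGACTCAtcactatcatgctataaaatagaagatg
Aldh1a1 (chr19:20492333-20492582, plus strand): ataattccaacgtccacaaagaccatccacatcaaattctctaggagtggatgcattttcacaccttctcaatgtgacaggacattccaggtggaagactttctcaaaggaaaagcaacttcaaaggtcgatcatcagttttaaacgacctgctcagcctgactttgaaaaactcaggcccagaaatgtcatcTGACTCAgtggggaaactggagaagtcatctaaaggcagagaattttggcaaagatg
Efemp1 (chr11:28852955-28853204, plus strand): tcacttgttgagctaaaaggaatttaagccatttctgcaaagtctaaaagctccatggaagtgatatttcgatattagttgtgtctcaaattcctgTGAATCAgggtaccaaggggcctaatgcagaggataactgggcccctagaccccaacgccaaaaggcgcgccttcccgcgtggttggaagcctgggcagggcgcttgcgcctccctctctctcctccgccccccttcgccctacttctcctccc

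Of the genes shown, Mmp10 and Mmp13 were higher and Aldh1a1 and Efemp1 lower in tendon flow, so a TGANTCA match stood before genes of either direction. The Efemp1 match has A at N and so is not the AP-1 motif itself, while the others have C or G there.

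In the Wnt pathway 3 of 49 genes were higher and 3 lower in tendon flow (median 0.03), against 1.65% of all genes called. The ligand Wnt4 was at 9.37, 9.06 and 9.18 in tendon flow, against 6.23, 6.46 and 6.36 in cornea flow (2.85 ± 0.25, adjusted p = 3.25e-06). The secreted Wnt antagonist Sfrp2 was at 8.83, 8.8 and 8.42 in tendon flow, against 6.95, 6.66 and 6.9 in cornea flow (1.85 ± 0.17, adjusted p = 7.1e-06). Dkk3, a secreted member of the Dickkopf family, was higher by 0.98 (adjusted p = 0.0181) but not without cornea flow 1 or 2 or tendon flow 1 or 3 (0.76 to 1.18, adjusted p up to 0.112). On the other side stood a receptor, Fzd6, at 7.42, 7.68 and 7.49 in tendon flow, against 9.52, 8.91 and 10.16 in cornea flow (-2.0 ± 0.22, adjusted p = 3.51e-05). The receptor Fzd4 (-0.53, adjusted p = 0.0229) and the ligand Wnt5a (-0.92, adjusted p = 0.00855) were also lower, named after their values were seen. Wnt5a was lost without tendon flow 3 (-0.99 to -0.81, adjusted p up to 0.0686) and Fzd4 without 5 libraries, all but tendon flow 1 (-0.61 to -0.46, adjusted p up to 0.153). The probe-set mean of Fzd6 was -1.13, still called.

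The insulin-like growth factor system gave 0 higher and 3 lower of 19 (median -0.23), against 0.786% of all genes lower. After Igfbp2, the binding protein Igfbp6 was at 8.89, 8.98 and 8.97 in tendon flow, against 10.04, 9.74 and 10.05 in cornea flow (-1.0 ± 0.18, adjusted p = 0.00592). The ligand Igf1 was at 6.88, 7.17 and 7.38 in tendon flow, against 7.74, 7.83 and 8.32 in cornea flow (-0.82, adjusted p = 0.015), and was lost without cornea flow 3 or tendon flow 1 (-0.94 to -0.64, adjusted p up to 0.1). Igfbp3, the main carrier of these growth factors in serum, had the largest difference of all genes not called: it was at 9.7, 7.52 and 8.72 in tendon flow, against 5.97, 6.46 and 6.02 in cornea flow (2.50 ± 0.62, adjusted p = 0.052), without overlap but with a spread of more than 2 log2 units within tendon flow. Among ligands of other families, Inhbb was the 1 call among 42 BMP, TGF-beta and activin genes, at 11.13, 9.39 and 10.06 in tendon flow, against 8.16, 7.06 and 7.6 in cornea flow. Kitl, the ligand of the Kit receptor, was the 1 call among 46 genes of FGF, PDGF, HGF and EGF signalling (1.5, adjusted p = 0.035; lost without cornea flow 1 or 2 or any 1 tendon flow library, 1.34 to 1.66, adjusted p up to 0.148). Hedgehog and Notch genes gave 0 calls of 27. Single calls among 42 and 46 genes lie near the 1.65% of all genes that were called. Kitl had a probe-set mean of 0.66, still called.

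Guidance molecules known from axons gave 3 higher and 1 lower of 46 (median 0.08), against 1.65% of all genes called. The semaphorin receptor Plxnc1 was at 9.28, 8.91 and 9.16 in tendon flow, against 7.65, 7.19 and 7.04 in cornea flow (1.82 ± 0.19, adjusted p = 2.46e-05). The secreted ligand Slit3 was at 10.58, 10.42 and 10.08 in tendon flow, against 8.91, 8.96 and 9.1 in cornea flow (1.37 ± 0.21, adjusted p = 0.00114). Sema3a, a repulsive ligand, was lower, at 7.78, 8.15 and 7.99 in tendon flow, against 9.37, 8.93 and 9.35 in cornea flow (-1.25 ± 0.17, adjusted p = 0.000402). The receptor Epha3 was higher by 1.52 (adjusted p = 0.0373) and lost its call without cornea flow 1 or 2 or any 1 tendon flow library (1.04 to 1.96, adjusted p up to 0.169). Mcam, an adhesion molecule of pericytes and endothelium, was lower at 6.67, 7.1 and 7.2 in tendon flow, against 8.45, 8.12 and 9.31 in cornea flow (-1.64 ± 0.29, adjusted p = 0.00452). Retinoid genes gave 1 higher and 2 lower of 24. The binding protein Crabp1 was at 9.62, 10.05 and 9.75 in tendon flow, against 7.34, 7.28 and 8.83 in cornea flow (1.99 ± 0.32, adjusted p = 0.00224), opposite in direction to Aldh1a1 and Aldh3a1. The probe-set means were 0.97 for Plxnc1 and 0.79 for Epha3, both still called. The Crabp1 call was lost in a fit on the 6 flow libraries alone.

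Cytoskeletal and mechanically responsive genes that were called were lower in tendon flow. Contractile genes gave 0 higher and 2 lower of 31 (median -0.17), against 1.65% of all genes called. YAP, TAZ and other mechanically responsive genes gave 0 higher and 2 lower of 34 (median -0.04). Mylk, of the contractile list and chosen after its values were seen, went the other way without being called (1.15, limma, adjusted p = 0.0529). Myh10, a non-muscle myosin heavy chain, was at 10.15, 10.28 and 10.19 in tendon flow, against 11.3, 11.04 and 11.29 in cornea flow (-1.0 ± 0.19, adjusted p = 0.00718; 0.0554 with the beta-actin and 0.0552 with the Gapdh covariate). The myosin light chain Myl9 was lower as well (-1.21, adjusted p = 0.0253) but not without cornea flow 2 or 3 or tendon flow 1 or 3 (-1.33 to -1.08, adjusted p up to 0.131). Ankrd1, a target of YAP, was at 7.27, 8.21 and 8.01 in tendon flow, against 9.34, 10.24 and 9.28 in cornea flow (-1.79 ± 0.35, adjusted p = 0.0106; lost without cornea flow 2 or tendon flow 1, -1.98 to -1.48, adjusted p up to 0.0757). Ier3, an immediate early gene, was at 12.25, 11.94 and 11.7 in tendon flow, against 12.86, 12.96 and 12.91 in cornea flow (-0.95 ± 0.18, adjusted p = 0.00804; lost without tendon flow 3, -1.09 to -0.82, adjusted p up to 0.0663). Myh10 had a probe-set mean of -0.44, still called, and Myl9 differed by -0.77 with the Gapdh covariate (adjusted p = 0.12). The other probe set of Ankrd1 differed by -1.81 and was called.

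Antioxidant targets of NRF2 gave 0 higher and 1 lower of 26 (median -0.09), against 1.65% of all genes called. Gclc, the catalytic subunit of the first enzyme of glutathione synthesis, was at 9.16, 8.7 and 8.45 in tendon flow, against 9.58, 10.04 and 9.67 in cornea flow (-0.99 ± 0.20, adjusted p = 0.0148; lost without cornea flow 2 or tendon flow 2 or 3, -1.19 to -0.84, adjusted p up to 0.113). Hmox1, haem oxygenase, was at 12.08, 11.21 and 10.17 in tendon flow, against 11.87, 12.01 and 11.79 in cornea flow (-0.74, adjusted p = 0.749). Gclm (-0.38) and the sulfiredoxin Srxn1 (0.34) were not called either, with adjusted p of 0.782 and 0.814. Hmox1 thus spread over nearly 2 log2 units within tendon flow, and the groups overlapped. Of 21 heat shock chaperones 1 was lower, Hspa1a, at 8.4, 8.33 and 8.25 in tendon flow, against 9.15, 10.59 and 8.93 in cornea flow (-1.23 ± 0.29, adjusted p = 0.0413); without the highest library, cornea flow 2, the difference was -0.72 and the call was lost. That call was also lost without any 1 tendon flow library (adjusted p up to 0.168).

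Lipid handling genes gave 2 higher and 0 lower of 22 (median 0.08), against 1.65% of all genes called. Angptl4, a secreted inhibitor of lipoprotein lipase, was at 10.59, 10.59 and 10.56 in tendon flow, against 9.2, 9.48 and 8.94 in cornea flow (1.38 ± 0.30, adjusted p = 0.0211). Lpl, that lipase, was at 11.82, 11.9 and 12.06 in tendon flow, against 11.01, 9.32 and 10.12 in cornea flow (1.77 ± 0.36, adjusted p = 0.0123). The enzyme and its inhibitor were therefore higher together in tendon flow, each without overlap. Angptl4 was lost without cornea flow 1 or 3 or any 1 tendon flow library (1.25 to 1.51, adjusted p up to 0.113), and Lpl without cornea flow 2 or tendon flow 3 (1.36 to 2.21, adjusted p up to 0.0675). The desaturase Fads2 (-0.71, adjusted p = 0.0108) was the 1 call of 27 genes of cholesterol and fatty acid synthesis, and the phosphofructokinase Pfkp (-0.76, adjusted p = 0.0258) the 1 call of 25 glycolysis and hypoxia genes. Pfkp was lost without any 1 of the 6 libraries (-0.82 to -0.69, adjusted p up to 0.148) and Fads2 without cornea flow 2 or 3 or tendon flow 1 or 3 (-0.85 to -0.61, adjusted p up to 0.0656). The probe-set means were 0.84 for Angptl4, still called, and -0.42 for Pfkp, not called (adjusted p = 0.186). The other probe set of Lpl differed by 1.02 and was called.

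Chemokine, interleukin and prostaglandin genes gave 1 higher (Ccl8) and 3 lower of 39, against 1.65% of all genes called. The stromal chemokine Cxcl12 was at 8.65, 8.53 and 8.28 in tendon flow, against 9.74, 9.32 and 10.83 in cornea flow (-1.48 ± 0.36, adjusted p = 0.0483), and the chemokine Ccl9 was lower as well (-1.13, adjusted p = 0.0337). Cxcl12 was lost with the replicate block and without any 1 library but cornea flow 2 (-1.80 to -1.04, adjusted p up to 0.245), and Ccl9 without any 1 but cornea flow 2 (-1.31 to -0.92, adjusted p up to 0.187). The monocyte chemokines Ccl7 and Ccl2, chosen after their values were seen, differed by 2.24 and 1.5 without passing the test (adjusted p = 0.0679 and 0.565). Ccl2 was at 12.2, 11.8 and 11.8 in tendon flow, against 11.1, 8.66 and 11.6 in cornea flow. Complement and coagulation genes gave 0 calls of 21 (median 0.23) and interferon-stimulated genes 0 of 29 (median 0.09). Ccl9 had a probe-set mean of -0.61, still called. Cxcl12 had other probe sets at -1.59, called, and at 0.09, not called.

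The cell cycle list had the lowest median of the lists, -0.44 over 40 genes, and 34 differences were below 0, although no gene of the list was called lower. Medians over the 3 same-numbered pairs were -0.41, -0.58 and -0.35, and in static culture the median was -0.57. The median under flow was -0.25 without cornea flow 2 and with the Gapdh covariate, and -0.28 with array weights. It was -0.59 without cornea flow 1 and -0.62 without tendon flow 2. Mki67, a protein of dividing cells, chosen after its values were seen, was at 7.09, 8.41 and 7.24 in tendon flow, against 8.57, 9.25 and 8.45 in cornea flow (-1.18, adjusted p = 0.423). What was called were 2 inhibitors of cell cycle kinases, higher in tendon flow: Cdkn2a at 9.33, 8.71 and 8.88 in tendon flow, against 7.6, 7.57 and 8.19 in cornea flow (1.19, adjusted p = 0.0367), and Cdkn2b at 11.74, 11.41 and 11.54 in tendon flow, against 11, 10.35 and 10.94 in cornea flow (0.80, adjusted p = 0.0401). Both calls were lost without 5 of the 6 libraries, all but cornea flow 3 for Cdkn2a (1.01 to 1.39, adjusted p up to 0.19) and all but cornea flow 1 for Cdkn2b (0.59 to 0.92, adjusted p up to 0.202).

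**Figure D4:**
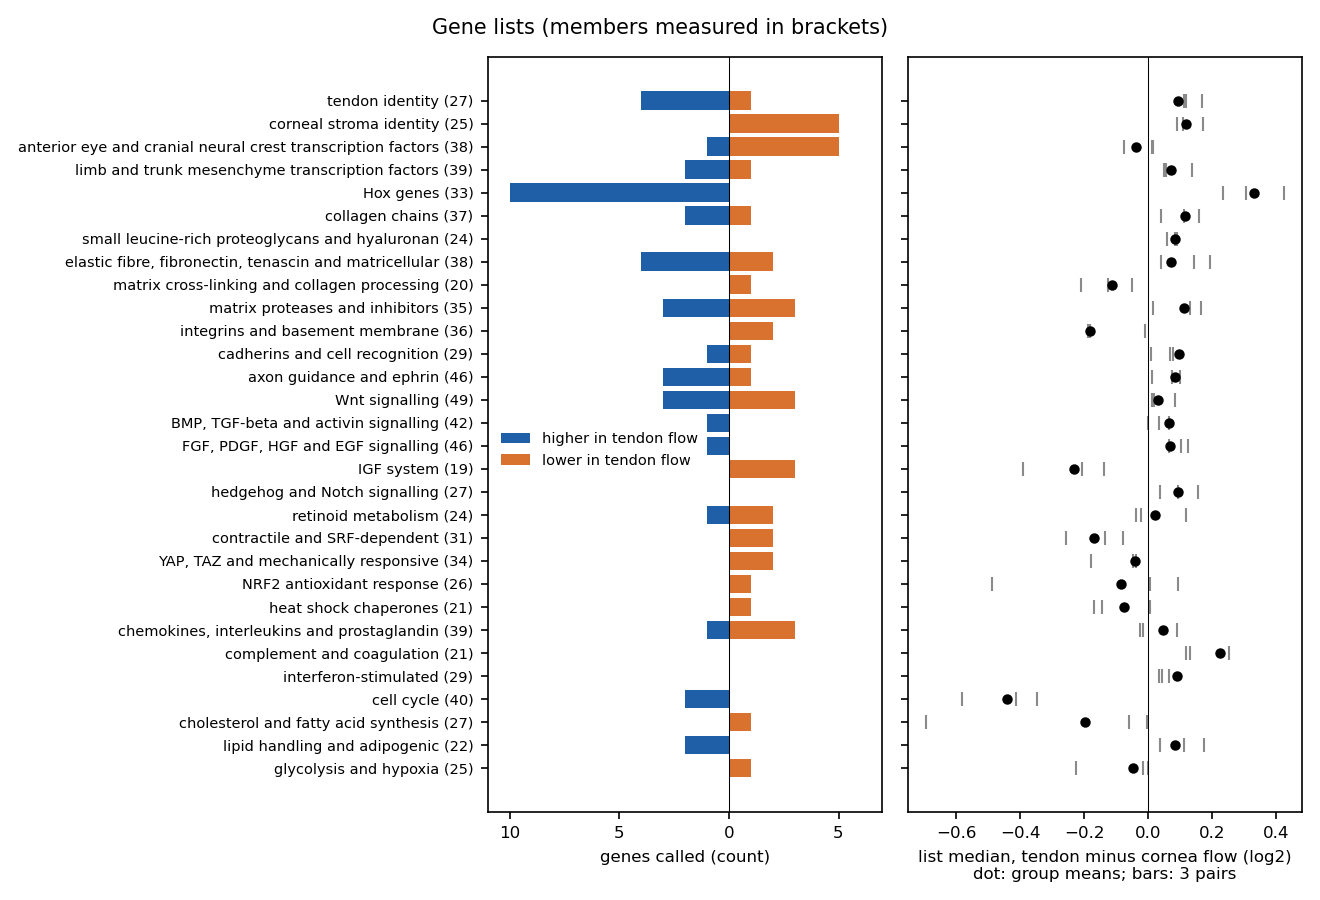
Gene lists by role. Left: number of members called higher (blue, to the left) and lower (orange, to the right) in tendon flow. Right: median difference of the list (log2), as a dot for the group means and grey bars for the 3 same-numbered pairs of libraries. Hox genes have 10 members called higher and 0 lower and a median of 0.33; the cell cycle list has the lowest median, -0.44, with 2 members called.

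Markers of other cell types that a dissection could carry along were called in some lists. Over 10 such lists with 165 members, 1 was higher and 5 lower in tendon flow, against 0.863% of all genes higher and 0.786% lower, and 5 lists had no call (endothelium, skeletal muscle, cartilage and bone, macrophages and leukocytes, lens and retinal pigment epithelium). List medians lay between -0.28 and 0.13. For the keratinocyte and corneal epithelium list, 2 of 20 were lower, and the mean level of the list was 6.26 to 6.30 in tendon flow libraries, against 6.30 to 6.40 in cornea flow libraries. Perp, a desmosome protein, was at 8.03, 7.68 and 7.71 in tendon flow, against 10.02, 8.88 and 10.13 in cornea flow (-1.87 ± 0.33, adjusted p = 0.00396). The simple keratin Krt19 was at 6.26, 6.06 and 6.09 in tendon flow, against 7.1, 7.47 and 7.19 in cornea flow (-1.11 ± 0.12, adjusted p = 3.67e-05). Krt12, the keratin that defines corneal epithelium, differed by 0.27 and was not called (named after its value was seen). Col8a1 was the 1 call of 8 corneal endothelium genes, whose mean level was 8.07 to 8.13 in tendon flow, against 8.53 to 8.72 in cornea flow. Stmn2, a neuronal microtubule regulator, was at 9.75, 9.24 and 9.09 in tendon flow, against 11.57, 10.55 and 11.92 in cornea flow (-1.99 ± 0.31, adjusted p = 0.00145), and Mitf, a factor of melanocytes and other cells, was higher by 1.33 (adjusted p = 0.019; lost without cornea flow 1 or 3 or tendon flow 1 or 3, 1.04 to 1.55, adjusted p up to 0.119). The part of these cell types in the difference between the tissues was not tested, and in such bulk RNA fewer cells of a type and less RNA per cell cannot be told apart. Over all 41 lists, 81 of 1056 distinct members were called, against 1.65% of all genes. Because earlier results of these data were known when the lists were chosen, this excess is no test. The probe-set mean of Mitf was 0.78, still called.

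The same tissues were compared in static culture. These were other libraries but not always other cultures: the scan records give 2 tendon and 2 cornea pairs of a flow and a static library the same culture day, and give no day for the libraries of the first scan batch. The static values are therefore no independent repeat. Nor were the static groups matched by hybridisation run. All cornea static libraries were in run 2 and scan batch 2, while tendon static 1, 2 and 3 were in runs 1, 3 and 2. The static comparison, the axis drawn from it above and the interaction are therefore not balanced for run. With the run as a block, added after seeing the data, 537 genes were called between the static groups and 0 in the interaction. In static culture 435 genes (2.39%) were called, 194 (1.07%) higher and 241 (1.32%) lower in tendon static, and the 2 groups' libraries did not overlap in 16.2% of all genes. All 300 genes called under flow had the same direction in static culture, against 72.8% of all genes and 72.3% of genes not called. Of the 300, 239 were also called in static culture, which is 79.7% of the calls under flow and 54.9% of those in static culture, and 0 were called in the opposite direction. The median ratio of the static difference to the flow difference over the 300 genes was 0.985. For Cck the difference was 3.11 under flow and 3.4 in static culture, for Aldh1a1 -4.45 and -4.56, and for Tfap2b -2.29 and -2.27.

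Whether the tissue difference itself changed with flow was tested by the interaction of tissue and flow. No gene passed (0 of 18193; smallest adjusted p 0.9998, limma), and 188 genes (1.03%) had an unadjusted p under 0.05, 11 of them among the 300. The 95% interval of the interaction had a median half-width of 0.44 log2 units over all genes and 0.60 over the called genes. These are single-gene intervals, not adjusted over the 18193 genes, so they are no limit of detection. On simulated data 4% of interactions of 0.5 and 60% of 1 log2 unit were recovered. The main fit takes all libraries as independent. With the culture day as a random block, where libraries of 1 day correlated at 0.579 on chip A and 0.32 on chip B, 917 genes (5.04%) had an unadjusted p under 0.05 and again 0 passed (smallest adjusted p = 0.546, limma), with a median half-width of 0.33. In the libraries paired by day alone, with the day as a fixed block, it was 907 genes (4.99%) and 0 passed (smallest adjusted p = 0.933). Pcp4l1, a small protein of the PEP-19 family, had the smallest p: tendon exceeded cornea by 0.65 under flow and by 1.38 in static culture (interaction -0.72, 95% interval -1.09 to -0.36, unadjusted p = 0.000608 from limma; 3e-05 with the day as a random block, adjusted p = 0.546). Hspa1a, Ier3, Hoxc10 and Alx1 are not among the 10 smallest p and were chosen here after their values were seen. Hspa1a had a difference of -1.23 under flow and -0.17 in static culture (interaction -1.06, unadjusted p = 0.0212). Ier3 had -0.95 and -0.34 (unadjusted p = 0.0293), and Hoxc10 4.47 and 3.44 (unadjusted p = 0.0297). Alx1 went the other way, at -2.17 under flow and -2.93 in static culture (unadjusted p = 0.0337). Nfat5, the factor of the response to hypertonicity, was among the 10 smallest p, at -0.27 under flow and -0.90 in static culture (unadjusted p = 0.00463; probe-set mean of the interaction 0.23, against 0.63). The others of the 10 were Ahsa2, Phc3, Acap2, Myct1, Ttc21b, Ifi204, Fndc3c1 and Rab8b. Their interactions lay between -0.75 and 0.71, with unadjusted p of 0.0024 to 0.00703 (limma). None of these holds after adjustment in any of the 3 fits.

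**Figure D5:**
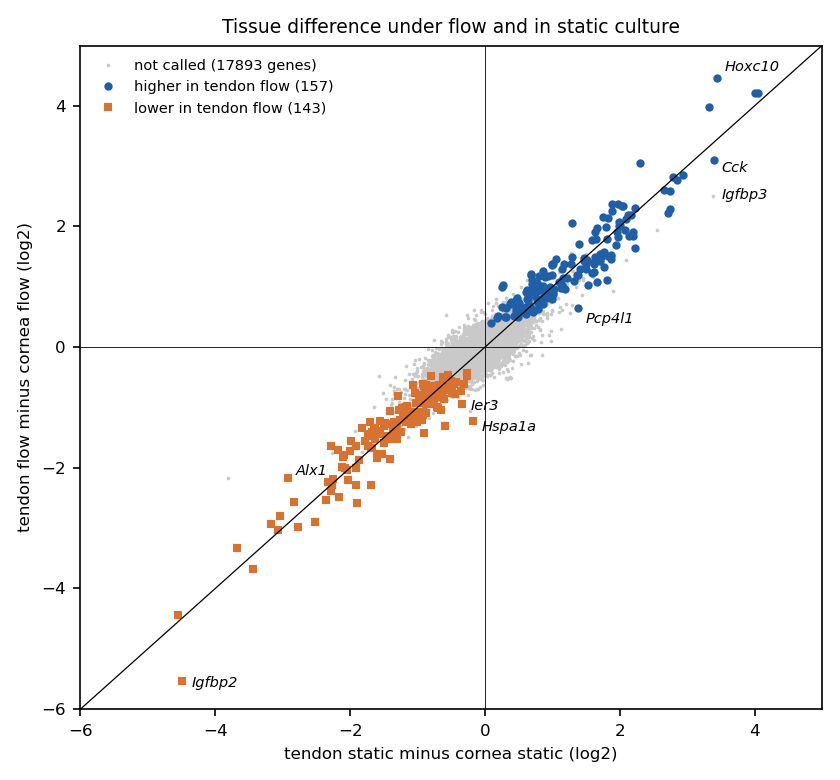
Tissue difference of each gene under flow (vertical axis, tendon flow minus cornea flow, log2) against the same difference in static culture (horizontal axis, tendon static minus cornea static, log2). Blue circles are the 157 genes called higher and orange squares the 143 called lower in tendon flow, grey points all others; the diagonal marks equal differences. All called genes lie in the quadrants of equal sign; Hoxc10, Hspa1a and Ier3 lie farther out under flow, Pcp4l1 and Alx1 in static culture.

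Skin flow placed the tissue differences. Of the 157 genes higher in tendon flow than in cornea flow, 84 had a skin flow mean nearer to tendon flow and 73 nearer to cornea flow, and for the 143 lower genes it was 97 and 46. Tendon flow stood above skin flow in 44 of the higher genes and below it in 21 of the lower genes (adjusted p under 0.05 in that contrast, in which 0.995% of all genes were called). Cornea flow stood below skin flow in 66 of the higher genes and above it in 67 of the lower genes (1.9% of all genes called). These contrasts share libraries with the comparison of tendon and cornea. Prg4 averaged 11.0 in tendon flow, 7.01 in cornea flow and 7.42 in skin flow. Cck averaged 12.9 in tendon flow, 9.76 in cornea flow and 12.6 in skin flow. Among the flow groups Prg4, with Thbs4, Sfrp2 and Lmcd1, was thus high in tendon alone, whereas for Cck the low level was that of cornea flow. Tendon static was high as well, with means of 10.8 for Prg4, 8.90 for Thbs4, 9.39 for Sfrp2 and 10.1 for Lmcd1. Aqp1 averaged 6.11 in tendon flow, 9.79 in cornea flow and 5.88 in skin flow, and tendon flow and skin flow were not told apart (adjusted p = 1). Ptgis averaged 8.54 in tendon flow, 10.7 in cornea flow and 9.86 in skin flow, and there each tissue differed from both others (adjusted p of at most 0.00895).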

How the data were processed

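RNA of 18 libraries was labelled by a two-cycle protocol and hybridised to 2 chips each, per the labels' protocols. The authors deposited log2 values per probe set, made with RMA per the submitters' processing notes; the sources used here give no version of RMA. Values ran from 2.41 to 14.47. Per gene, 1 probe set with a single gene symbol was kept (chip A before chip B, then the highest mean), which left 12388 genes read on chip A and 5805 on chip B. Platform annotation gave 1 symbol to 20380 of 22690 probe sets on chip A and 14661 of 22575 on chip B.

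All 6 groups (3 tissues, flow or static) entered 1 limma fit per chip (limma 3.58.1, R 4.3.3), with p-values adjusted by Benjamini-Hochberg over both chips. Arrays give no read depth, so the 3 libraries a group limit the precision. Tested on simulated data for tendon flow against cornea flow over 18193 genes, the fit recovered 30% of changes of 0.5, 84% of 1, 100% of 2 and 98% of 3 log2 units, with 8 false calls. For the interaction it recovered 4%, 60%, 90% and 98%.

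Scan records show that same-numbered flow libraries shared a hybridisation run, so numbers pair them. Their deviations from the group means correlated at 0.263, 0.157 and 0.082. Pairs of unlike number ran from -0.299 to 0.076, so the third pair stood little apart from these. The fit with the replicate block called 354 genes. Named genes were the 14 largest called differences each way, among genes without overlap between the groups. Added were up to 4 called genes per list, all called Hox genes, the 10 smallest interaction p, and fixed tissue and flow genes. Clone and predicted names were left out, and other genes are marked where named. Members and lists were chosen with earlier results of these data known. Alternatives covered normalization, filters, blocks, RNA quality and left-out libraries. Promoter sequences are from RefSeq (GRCm38.p6).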

Additional observations from a re-analysis of the deposited data

How the results depend on the processing

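Between tendon flow and cornea flow, 300 genes were called, and in none of the alternatives fitted per gene did any of them turn direction. Counts moved by more than 1.5 times with array weights (707), within the second scan batch alone (113) and with a minimum of 2-fold (186); leaving out 1 library gave 185 to 254. The batch-2 and leave-out fits use fewer libraries; for array weights the cause was not tested. The replicate block gave 354 genes, of which 292 were among the 300, and of the named calls it ended only that of Cxcl12. The hybridisation run as a block, added after seeing the data, gave 429, the Gapdh covariate 201 and the culture day as a random block 381, both also added then. With the culture day as a block, Epha3 (adjusted p = 0.0559) and Hspa1a (0.0695) lost their calls. Of 87 named called genes 48 kept their call in all alternatives and 58 in all 6 fits without 1 library. A fit on the 6 flow libraries alone called 240 genes, of which 194 were among the 300. It ended 23 named calls, among them Adamts5 and Crabp1. Within the second batch alone 34 named calls were lost. Among them were Thbs2, Col8a1, Mmp16, Adamts5, Mcam, Igfbp6, Crabp1 and Perp, which kept theirs in all 6 fits without 1 library.

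For tendon static against cornea static the count was 435, 537 with the replicate block, 513 with the culture day as a random block and 309 to 613 without 1 library. In cornea static the replicate numbers do not follow the hybridisation runs, so the replicate block does not match runs there. The interaction of tissue and flow gave 0 genes under limma in every alternative, with 121 to 917 at an unadjusted p under 0.05, the most with the culture day as a random block. Uncalled differences near 0 changed sign. Tnmd was 0.18 with the beta-actin and 0.21 with the Gapdh covariate, and -0.205 to 0.0339 without 1 library. Kera was -0.0014 with the Gapdh covariate. Without 1 library Srxn1 ran from -0.0508 to 0.63 and Gclm from -0.79 to 0.0184. The causes were not tested.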
